A study of Oreochromis niloticus with 14 samples.

Results

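The transcripts described here are those of mcm7 (ENSONIG00000002357), lig1 (ENSONIG00000015098) and a pair of genes that the study names atad2 (ENSONIG00000014021 and ENSONIG00000007281). These 4 genes, of 17455 listed in either table, were followed over all 14 RNA-Seq libraries, and all 4 were in the table of each tissue. They were picked by their gene IDs with their liver differences already known, so the liver values are a description and carry no test. RNA was extracted from the liver (4 control and 4 BaP fish) and the testis (3 control and 3 BaP fish) of year-old male Nile tilapia, Oreochromis niloticus. BaP fish received 5 intraperitoneal injections of benzo(a)pyrene, each of 3 mg/kg and spaced 6 days apart, in a carrier of DMSO and corn oil, and tissues were taken on day 26. Control fish were injected with the carrier alone. Each aquarium held fish of a single treatment, so the aquarium and BaP cannot be told apart. Nothing in the labels says that fish were pooled, and each library is taken as 1 fish.

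Before a cell divides, its DNA is copied once in S phase. The product of mcm7 is a subunit of the MCM ring, the helicase that is loaded at replication origins and opens the double strand ahead of the fork. The product of lig1, DNA ligase I, joins the Okazaki fragments of the lagging strand and also seals nicks at the end of excision repair. The product of ATAD2, known from human cells, is a bromodomain ATPase that binds acetylated histones, among them those of newly copied chromatin. BaP is a polycyclic aromatic hydrocarbon whose metabolites form bulky DNA adducts. Most hepatocytes of an adult liver are not dividing, while the germ cells of an adult testis copy their DNA in large numbers ahead of mitosis and meiosis.

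Expression is given as normalized CPM, that is reads on a gene after scaling every library to the same effective size, as mean ± SD over fish. The livers held from 12485109 to 42836246 reads on genes and the testes from 26694344 to 30347667, and 3 reads, the smallest level taken as shown, amount to at most 0.27 normalized CPM in any library. The labelled tissues were checked with markers. The 15 hepatocyte genes that could be named (such as APOA1, FGG and APOB) summed to between 84363 and 175052 in the livers, and the 13 of them in the testis table to between 42.4 and 673 in the testes. None of 14 testis marker symbols has a name paired with an ID, so the testis label was not checked with its own markers.

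In liver, mcm7 was lower in BaP than in control fish on average. Its level in the control livers, replicates 1 to 4, was 151, 109, 43.5 and 174. In the BaP livers it was 25.8, 61.0, 16.1 and 20.1. The groups overlapped, because control replicate 3 lay below BaP replicate 2, while each of the other BaP livers was below every control liver. The counting intervals of these livers were apart (40.6 to 46.6 for control replicate 3 and 58.5 to 63.6 for BaP replicate 2, 95% exact Poisson), so this overlap is larger than counting error. Control livers averaged 120 ± 57.4 (SD, n = 4) and BaP livers 30.8 ± 20.6 (SD, n = 4). On the scale of log2 of the value plus 1, the difference of BaP from control was -1.94 with a standard error of 0.50. Without control replicate 3 it was -2.36.

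Of the 4 genes, lig1 alone was higher in the BaP livers. The control livers held 1.77, 1.74, 1.78 and 2.13 normalized CPM, and the BaP livers 5.04, 2.55, 3.41 and 4.16. Every BaP liver was above every control liver. These levels rest on 34 to 120 reads per library, and the counting intervals of the 4 control livers overlap one another, so their spread is within counting error. Among the BaP livers the intervals of replicate 1 (3.95 to 6.34) and replicate 2 (2.06 to 3.13) were apart. Control livers averaged 1.85 ± 0.19 (SD, n = 4) and BaP livers 3.79 ± 1.06 (SD, n = 4), which is 2.05 times the control mean. The log2 fold change was 0.72 (standard error 0.22), made smaller by the added 1 at this low level.

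The 2 atad2 genes were both lower on average in the BaP livers, but their libraries were spread differently. For ENSONIG00000014021 the control livers held 6.72, 38.5, 2.25 and 17.8 normalized CPM, and the BaP livers 3.66, 7.38, 2.07 and 2.56. The groups overlapped, since control replicate 3 lay below 3 of the BaP livers and BaP replicate 2 above control replicates 1 and 3. The control livers spanned 17.1-fold, and the log2 SD among them was larger than for 98.5% of the 12526 liver genes with a mean of at least 1. Control livers averaged 16.3 ± 16.2 (SD, n = 4) and BaP livers 3.92 ± 2.40 (SD, n = 4), with -1.36 as the log2 fold change (standard error 0.68). This value depended on the method, at -2.05 with edgeR's exact test, -2.04 with its quasi-likelihood test and -2.07 with DESeq2, and on single livers, at -0.78 without control replicate 2 and -1.98 without control replicate 3.

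For ENSONIG00000007281 the control livers held 8.96, 15.3, 6.49 and 18.8 normalized CPM and the BaP livers 5.32, 6.11, 6.47 and 6.17. No BaP liver reached the lowest control liver, although control replicate 3 exceeded the highest BaP liver by less than its counting interval (5.40 to 7.74). Control livers averaged 12.4 ± 5.65 (SD, n = 4) and BaP livers 6.01 ± 0.49 (SD, n = 4), with -0.83 as the log2 fold change (standard error 0.31). The 4 BaP livers lay close together, with a coefficient of variation of 8.18% against 45.7% in the control livers.

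**Figure D1:**
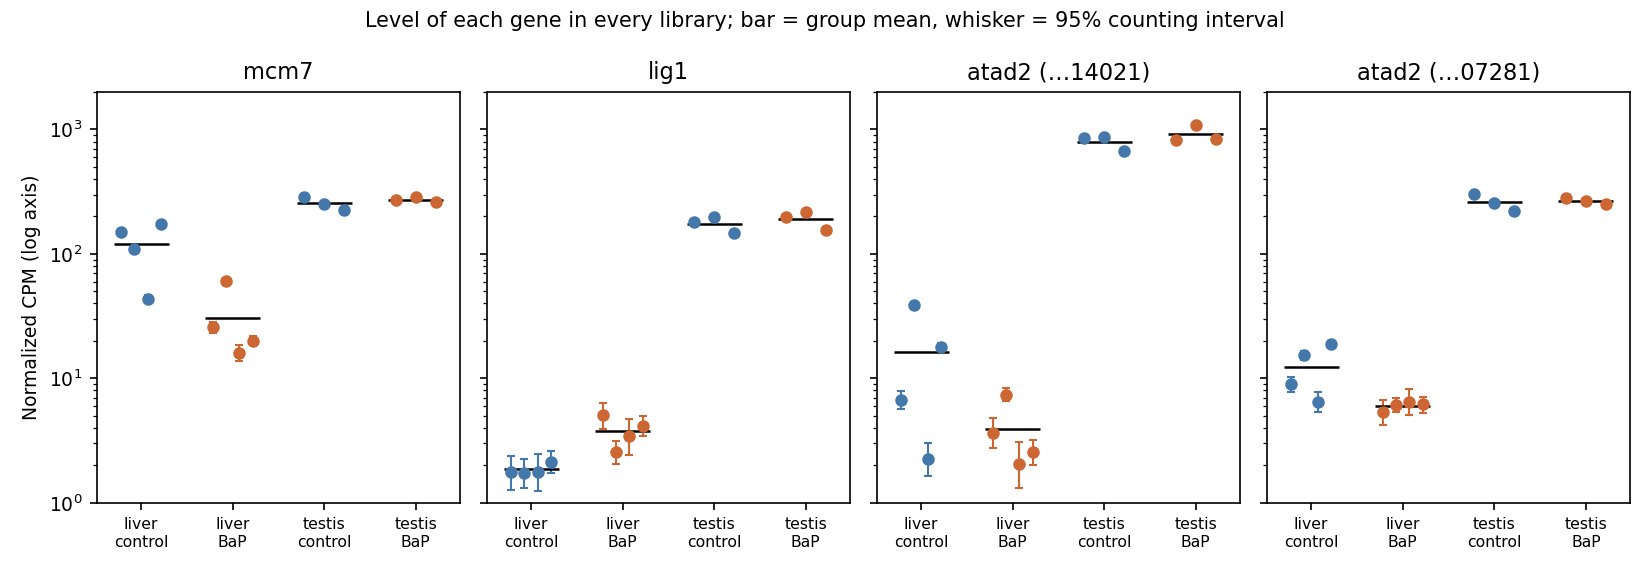
Normalized CPM (log axis) of the 4 genes in every library, with blue points for control and orange points for BaP fish, ordered by replicate number within a group, black bars for group means and whiskers for the 95% counting interval of 1 library. In liver the BaP mean is below the control mean for mcm7 (30.8 against 120) and both atad2 genes and above it for lig1 (3.79 against 1.85), while in testis the BaP and control points of each gene overlap.

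The study's threshold is an unadjusted p under 0.05 with a fold change over 1.5. With limma in liver, 3 of the 4 genes passed it in either direction, as did 12.0% of all genes tested. Among them 2 were past it and lower with BaP (mcm7 and ENSONIG00000007281), where 6.07% of all 12902 liver genes were. The other 1 was past it and higher (lig1), where 5.93% of all genes were, and ENSONIG00000014021 was not past it. With edgeR's exact test, its quasi-likelihood test and DESeq2, ENSONIG00000014021 was past it too, which made 3 lower and 1 higher. Of all 12902 liver genes, 913, 870 and 1026 were past it and lower with these tests, and 696, 693 and 714 higher. At an adjusted p under 0.05, limma called 0 of the 4 genes and 0.0698% of all liver genes. Of the 4, 3 had an unadjusted p under 0.05 from limma, as did 1745 of all 12902 liver genes. With edgeR's exact test and with DESeq2, 1 of the 4 (mcm7) had an adjusted p under 0.05, against 224 and 443 of all liver genes. With edgeR's quasi-likelihood test it was 0 of the 4, against 5 of all liver genes. The groups did not overlap for 1 gene that was lower and 1 that was higher, against 3.67% and 4.05% of all liver genes and 7.73% in either direction. The genes were chosen for this comparison, so nothing is read from these counts.

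Ratios between genes of the same library do not depend on its scaling. The log2 ratio of mcm7 to lig1 was between 4.61 and 6.42 in the control livers and between 2.24 and 4.58 in the BaP livers. The highest BaP liver was therefore just below the lowest control liver for this ratio. That control liver, replicate 3, held 34 reads of lig1 (counting interval 1.23 to 2.49 normalized CPM), so this gap is within counting error. The genes were picked with lig1 known to be higher and mcm7 lower, so nothing is read from it. The ratio of mcm7 to the atad2 gene ENSONIG00000014021 ranged from 1.51 to 4.49 in control and from 2.82 to 3.05 in BaP livers, so all BaP livers fell inside the control range. Between the 2 atad2 genes (ENSONIG00000014021 over ENSONIG00000007281) it ranged from -1.53 to 1.33 in control and from -1.65 to 0.27 in BaP livers. The atad2 genes were thus not in a fixed proportion among livers. How the counting divided reads between similar copies is not given in the sources used here, so a share of reads in common is possible for this pair.

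Testis libraries were not used in choosing the genes on their liver difference, and there BaP was tested against control with limma over all 16930 genes of that table. None of the 4 genes passed either threshold. For mcm7 the control testes held 288, 254 and 223 normalized CPM and the BaP testes 273, 285 and 260. All 3 BaP testes lay within the control range. Control testes averaged 255 ± 32.5 (SD, n = 3) and BaP testes 273 ± 12.8 (SD, n = 3). The log2 fold change was 0.10 (standard error 0.19, 95% interval -0.34 to 0.55), which as a fold is 0.787 to 1.47.

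For lig1 the control testes held 182, 197 and 146 and the BaP testes 196, 218 and 154. The groups overlapped, with the highest testis a BaP and the lowest a control fish. The log2 fold change was 0.11 (standard error 0.22, 95% interval -0.42 to 0.64). For ENSONIG00000014021 the control testes held 847, 869 and 677 and the BaP testes 823, 1083 and 845, with 0.20 as the log2 fold change (standard error 0.21, 95% interval -0.31 to 0.70). BaP replicate 2 was above every control testis, and the other BaP testes were inside the control range. For ENSONIG00000007281 the control testes held 303, 255 and 223 and the BaP testes 279, 266 and 251, with 0.04 as the log2 fold change (standard error 0.20, 95% interval -0.43 to 0.51). All 3 BaP testes lay within the control range here too.

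The adjusted p from limma was 1.00 for each of the 4 genes in testis. The exact two-sided permutation p was 0.5 for mcm7, 0.6 for lig1, 0.6 for ENSONIG00000014021 and 0.9 for ENSONIG00000007281, where the smallest p that 3 fish against 3 allow is 0.1. At the study's threshold 0 of the 4 were called, where 2.18% of all testis genes were (0.998% lower and 1.18% higher), and at an adjusted p under 0.05 also 0, against 0.00591% of all genes. The groups overlapped for all 4, while they did not for 6.08% of testis genes (2.84% lower and 3.24% higher). The smallest unadjusted p of the 4 from limma was 0.383. With edgeR's exact test, its quasi-likelihood test and DESeq2, likewise 0 of 4 had an unadjusted p under 0.05. Of all 16930 testis genes, 497, 446 and 575 had one with these tests. A p above the threshold does not show that the levels are equal, and the intervals above give the differences that 3 fish a group leave possible. The difference between the tissues was not tested, because the liver values chose the genes.

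All 4 genes had a higher normalized CPM in testis than in liver. The tables were normalized separately, so the ratios that follow are coarse. In the control fish, mean mcm7 was 2.13 times higher in testis than in liver, lig1 94.5 times, ENSONIG00000014021 48.9 times and ENSONIG00000007281 21.0 times. For each gene the lowest of the 6 testes was above the highest of the 8 livers, by 1.28-fold for mcm7 and 29.0-fold for lig1. The spread also differed. In testis the coefficient of variation within a group was between 4.70% and 17.1% for the 4 genes, and in liver between 8.18% and 99.0%.

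The other genes of DNA replication and S phase were looked up by name from a list of 90 symbols. Names are paired with IDs only for genes that the study listed as altered, so 13 of the 90 symbols were found, standing for 14 genes, of which 4 are the genes above. The 10 others were picked by the study on these same libraries, and their liver direction is not independent evidence. With limma in liver, 3 of the 10 were past the study's threshold and lower with BaP, where 6.07% of all liver genes were. Past it and higher was 1 (5.93% of all genes), and 6 did not pass. At an adjusted p under 0.05 limma called 0 of them (0.0698% of all genes) and edgeR's exact test 2 (224 of 12902 genes). Of the 10, 4 had an unadjusted p under 0.05 from limma, as did 1745 of all 12902 liver genes. The median log2 fold change of the 10 was -0.92, against 0.02 over all liver genes. Lower calls at the study's threshold numbered 7 of the 10 with edgeR's exact test, with DESeq2 and with limma without control replicate 3. Of all 12902 liver genes, 913, 1026 and 1201 were then lower. Without control replicate 2 or BaP replicate 4 it was 2 of the 10, against 626 and 659 of all genes. The study found its altered genes with edgeR's exact test, so the count with that test is partly set by the choice of genes.

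Among them, NPAT, a regulator of histone genes in S phase, fell from 22.4 ± 8.63 (SD, n = 4) to 6.88 ± 1.74 (SD, n = 4) in liver, a log2 fold change of -1.50 at the study's threshold. UHRF2, which binds methylated DNA, fell from 28.9 ± 4.76 (SD, n = 4) to 17.7 ± 3.62 (SD, n = 4), though without BaP replicate 4 its log2 fold change of -0.54 was under the threshold. The single-strand break repair scaffold XRCC1 averaged 93.8 ± 85.9 (SD, n = 4) in control livers. Its BaP livers averaged 30.8 ± 11.9 (SD, n = 4), with overlapping groups and a log2 fold change of -1.30. Its control mean rests on replicate 2, and it was no longer past the threshold without that liver (-0.77), without BaP replicate 1 (-1.29) or without BaP replicate 2 (-1.03). HELLS, a chromatin remodeller, rose from 2.83 ± 1.11 (SD, n = 4) to 11.4 ± 4.41 (SD, n = 4), in the same direction as lig1. The cyclin-dependent kinase CDK2 (log2 fold change -1.10), topoisomerase TOP2A (-1.08) and proliferation marker MKI67 (-1.02) did not pass with limma. Nor did PRIMPOL (-0.83), FANCI (-0.69) and the polymerase epsilon subunit POLE4 (0.36). With edgeR's exact test TOP2A (-2.05), MKI67 (-1.75), PRIMPOL (-2.07) and FANCI (-1.60) were past the threshold and lower. They were so with DESeq2 too (-2.07, -1.77, -2.10 and -1.63). Of all 12902 liver genes, 913 and 1026 were past it and lower with these tests. CDK2 and POLE4 were not past it with either test. PRIMPOL, FANCI and POLE4 were below 4 normalized CPM in every liver. In testis 0 of the 10 passed either threshold with limma or had an unadjusted p under 0.05. Of all testis genes, 426 of 16930 had such a p. The median log2 fold change of the 10 was 0.15 against -0.02 over all testis genes, and 9 of the 10 had a fitted value above 0. Without control replicate 3 this median was -0.0004, against -0.02 over all testis genes. In that fit HELLS, POLE4, NPAT, MKI67 and PRIMPOL were below 0 and the other listed genes above it. POLE4 was past the study's threshold in testis and lower with BaP (-0.92) without control replicate 3, where 177 of all 16930 testis genes were.

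**Figure D2:**
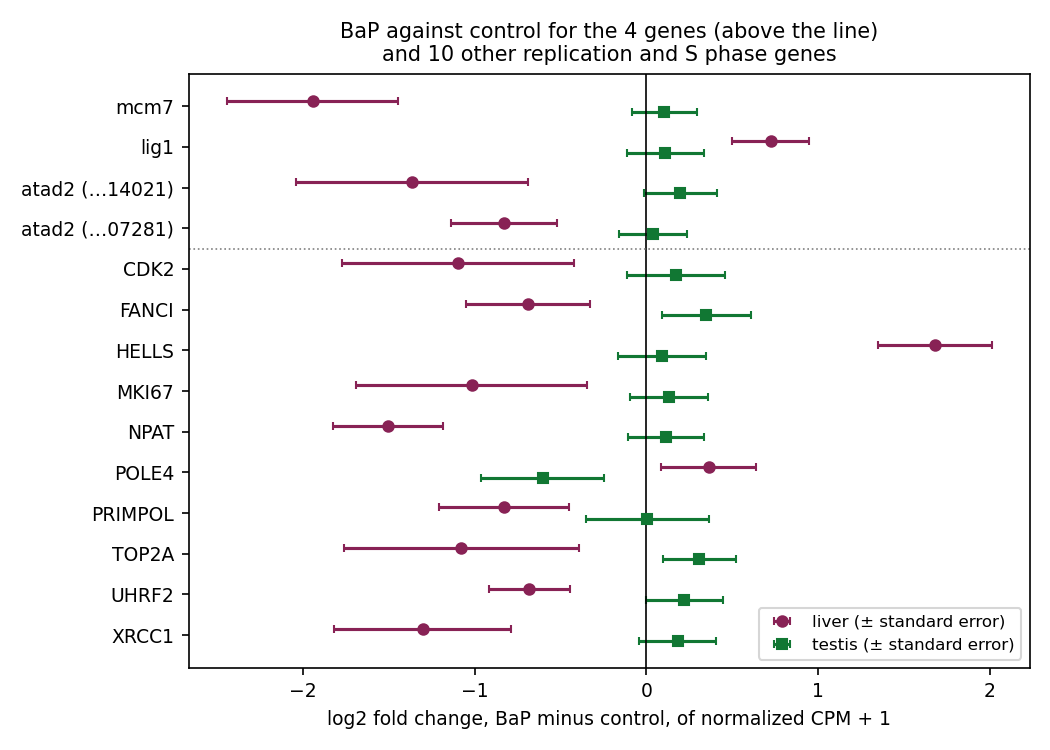
Log2 fold change of BaP minus control (normalized CPM plus 1) with standard error, in liver (purple circles, 4 against 4 fish) and testis (green squares, 3 against 3), for the 4 genes above the dotted line and 10 other replication and S phase genes below it. In liver 8 of the 10 lie left of 0 with HELLS and POLE4 to the right, and the testis values of the 4 genes run from 0.04 to 0.20.

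Over the 8 livers, the log2 levels of mcm7 and both atad2 genes were positively correlated, and those of lig1 negatively with each of them. Pearson's r of the log2 levels was 0.78 between mcm7 and ENSONIG00000014021, 0.79 between mcm7 and ENSONIG00000007281 and 0.86 between the atad2 genes (n = 8 livers). For the atad2 pair the rank correlation was lower, with a Spearman's rho of 0.45. These values hold the difference between the groups. After subtracting each group's mean they were 0.68, 0.51 and 0.80. For lig1, r was -0.78 with mcm7, and -0.29 after that subtraction. It was -0.54 with ENSONIG00000014021 and -0.15 after it, and -0.60 with ENSONIG00000007281 and 0.06 after it. The genes were picked with lig1 known to be higher and the others lower, so nothing is read from the signs before that subtraction. In the 6 testes all pairs had a positive r, for lig1 0.71 with mcm7, 0.81 with ENSONIG00000014021 and 0.59 with ENSONIG00000007281. For mcm7 it was 0.77 with ENSONIG00000014021 and 0.92 with ENSONIG00000007281, and between the atad2 genes 0.49. With 1 testis left out, lig1 and mcm7 were as low as 0.37, mcm7 and ENSONIG00000014021 as low as 0.40, lig1 and ENSONIG00000007281 as low as 0.17, and the atad2 genes as low as -0.17. These are descriptions, since the points share libraries and scaling and are few.

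Each gene was also compared with every other gene with a mean of at least 1 over the same livers (12522 genes), and the 5 with the highest r were noted. Each r over the livers holds the difference between the groups, with which the 4 genes were picked. No r after subtracting group means was computed for these genes. Names are paired only with genes that the study listed as altered, so the named neighbours were picked on these same libraries. The nearest gene was a different one for each of the 4. For mcm7 it was DBP, a clock-controlled transcription factor, with an r of 0.99 and the 8 livers in the same order (Spearman's rho 1.00). DBP ranged from 9.63 to 25.0 in control and from 5.12 to 11.2 in BaP livers. Also among the 5 for mcm7 were rab41 (0.99), a small GTPase, and BNIP3 (0.98), a mitophagy receptor. For ENSONIG00000007281 all 5 had names, and they were ECT2 (1.00), IQGAP3 (0.99), TACC3 (0.98), KIF23 (0.97) and ACLY (0.97). ECT2 ranged from 0.419 to 14.5 in control and from 0.069 to 0.719 in BaP livers. Its lowest value, in BaP replicate 1, was 1 read, under the 3-read minimum. IQGAP3 was also under that minimum there, at 0.138 where 3 reads amount to 0.207 normalized CPM. ECT2 and KIF23 act in cytokinesis, TACC3 at the mitotic spindle, and ACLY makes cytosolic acetyl-CoA.

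For ENSONIG00000014021 the 5 included the metalloproteinase MMP12 (0.97), KIAA0556 (0.97) and ANK1 (0.97), an ankyrin of the red cell membrane skeleton. For lig1 they included TIGAR (0.93), a fructose bisphosphatase induced by p53. No name was paired with 2 of the 5 for mcm7, 2 for ENSONIG00000014021 and 3 for lig1. With 8 livers and this many genes, high values of r arise easily. An r over 0.95 was reached by 19 genes for mcm7, 1 for lig1, 14 for ENSONIG00000014021 and 23 for ENSONIG00000007281. In testis, of the 5 nearest to each gene only 1 had a name, the mitotic kinase MELK. Its r to ENSONIG00000007281 was 0.99 over 6 testes, and 243 of 16402 genes there had an r over 0.95 to that gene.

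**Figure D3:**
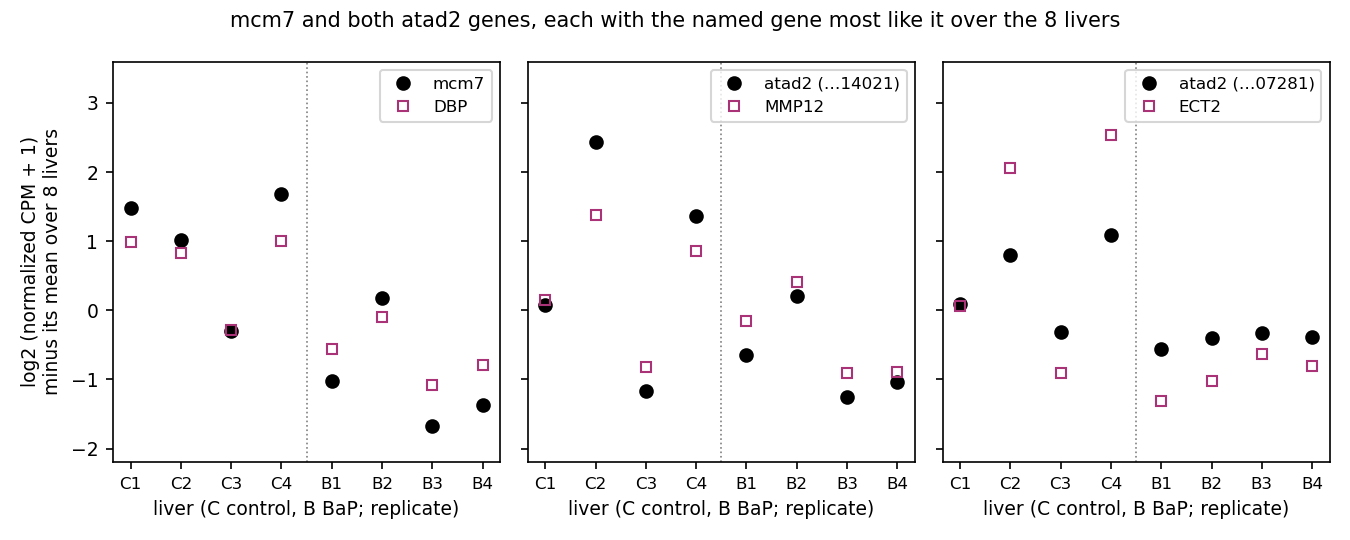
Log2 of normalized CPM plus 1, minus its mean over the 8 livers, for mcm7 and both atad2 genes (black circles) and the named gene with the highest Pearson's r to each (open squares), with control livers C1 to C4 and BaP livers B1 to B4. DBP follows mcm7 (r 0.99), MMP12 follows ENSONIG00000014021 (0.97) and ECT2 follows ENSONIG00000007281 (1.00). ECT2 was at no more than 0.719 normalized CPM in the BaP livers.

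Levels of markers of other cell types were also compared with these genes over the livers. In bulk tissue, fewer cells of a type and less RNA per cell cannot be told apart. The 5 red blood cell genes with a name (ALAS2, SPTB, SLC4A1 and a pair of HBB genes) summed to 1709, 3233, 179 and 1415 normalized CPM in the control livers and to between 151 and 820 in the BaP livers. Control replicate 3 thus lay among the BaP livers for these genes, as it did for both mcm7 and ENSONIG00000014021. None of the 5 was at 0 in any liver, and all 5 were lower on average with BaP (median log2 fold change -1.92). Over the 8 livers, r with the mean log2 level of the 5 was 0.85 for mcm7, 0.88 for ENSONIG00000014021, 0.80 for ENSONIG00000007281 and -0.70 for lig1. These r values hold the difference between the groups, and the genes and markers were picked with that difference known. The part of red blood cells in the liver differences was not tested.

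The 10 mitotic genes with a name (among them CDK1, PLK1 and BUB1) summed to 38.5, 81.6, 14.5 and 167 in the control livers and to between 13.6 and 23.2 in the BaP livers. MKI67 and TOP2A are in this list and also among the 10 other replication and S phase genes, so the lists are not separate. Control replicate 3 was again within the BaP range, and all 10 were lower on average with BaP, 1 of them (CCNB3) at 0 in a BaP liver. Others were near the floor as well. The lowest BaP value was 0.138 for BUB1, 0.312 for PLK1, 0.472 for NDC80 and 0.483 for MKI67. The lowest control value was 0.209 for NDC80 and for CCNB3 and 0.366 for PLK1. Over the livers, r with their mean log2 level was 0.98 for ENSONIG00000007281, 0.81 for ENSONIG00000014021, 0.75 for mcm7 and -0.49 for lig1. The 15 hepatocyte genes summed to between 84363 and 124958 in control and between 112356 and 175052 in BaP livers, with 13 of 15 higher on average, and r was -0.89 for mcm7 and 0.66 for lig1. The 2 exocrine pancreas genes summed to between 2887 and 7231 in control and between 6928 and 8424 in BaP livers, with both higher on average. Of the 3 genes on the white blood cell list, the gene that the study names CPA3 made up nearly all of the sum. It was at 732 to 2896 in control and 2098 to 2483 in BaP livers. Whether this gene marks white blood cells in these livers was not tested. CD247 and IL1B were at no more than 15.2 in any liver, and on average CPA3 and CD247 were higher and IL1B lower with BaP. All these marker genes come from the study's list of altered genes, so each r over the livers holds the difference between the groups. The part of these markers in the liver values was not tested.

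**Figure D4:**
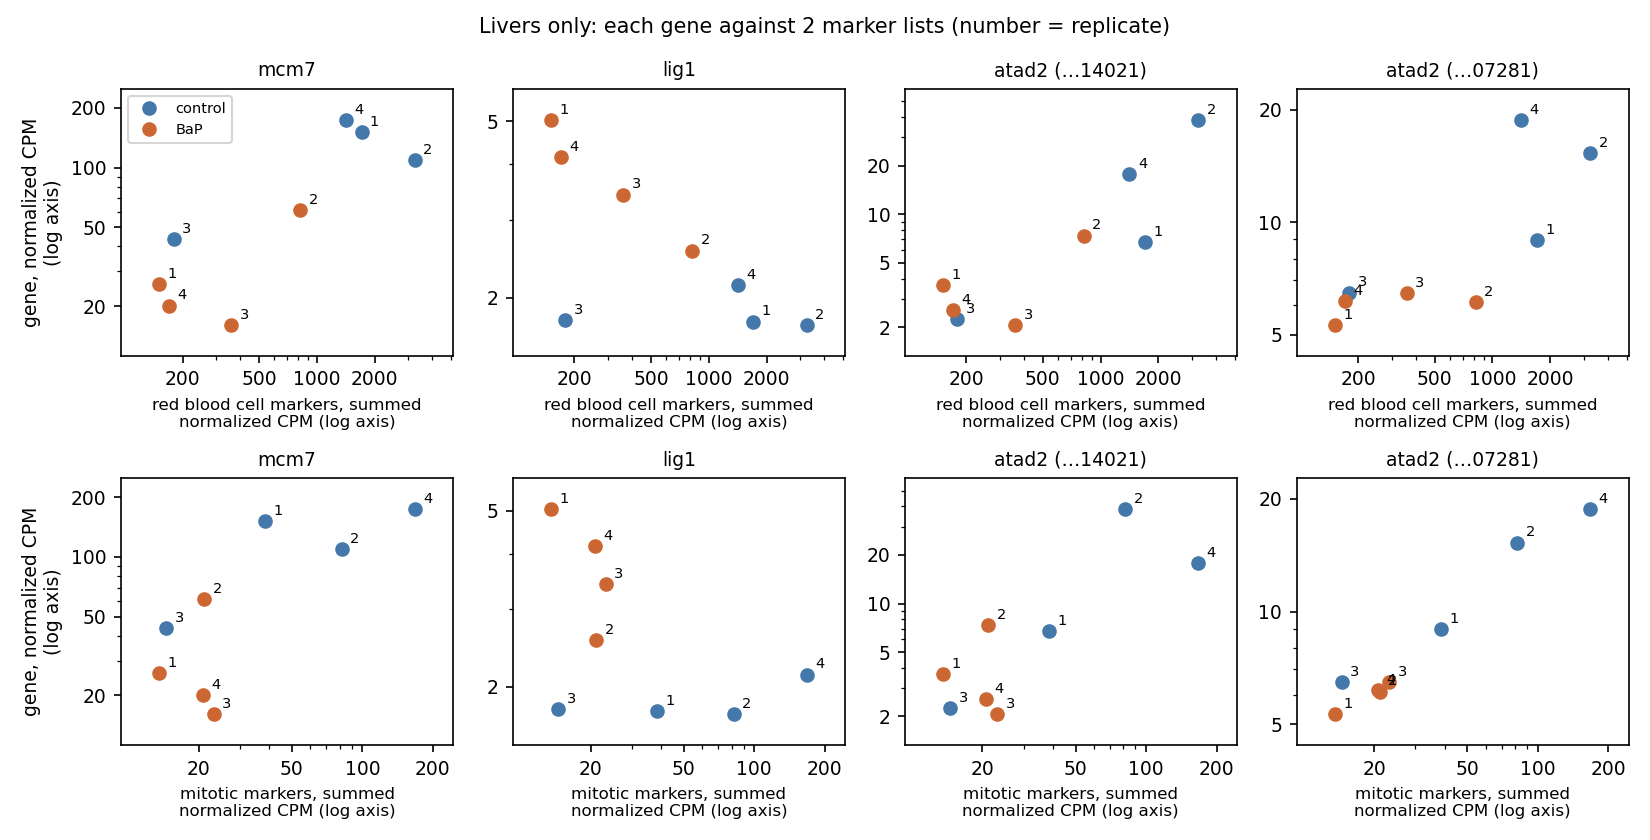
Level of each gene in the 8 livers (normalized CPM, log axis) against the summed normalized CPM (log axis) of 5 red blood cell genes (top) and 10 mitotic genes (bottom), with blue points for control, orange points for BaP and the replicate number beside each point. Control replicate 3 lies at the low end of both marker sums (179 and 14.5) with the BaP livers, and the highest mcm7 and atad2 points are control livers with high sums.

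In testis the same red blood cell genes were highest in control replicates 2 and 3 (676 and 465, against 54.7 to 102 in the other 4 testes). For mcm7, r with their mean log2 level over the 6 testes was -0.83, opposite in sign to liver. The mitotic genes summed to between 3367 and 6631 in control and between 4987 and 5742 in BaP testes. Their r was 0.96 for mcm7, 0.99 for ENSONIG00000007281, 0.61 for lig1 and 0.57 for ENSONIG00000014021. BaP and control testes overlapped for the mitotic sum as they did for the 4 genes. The 3 genes on the white blood cell list summed to between 5.87 and 15.2 in control and between 30.6 and 58.4 in BaP testes. The 2 exocrine pancreas genes summed to between 0.293 and 2.12 in control and between 1.80 and 56.9 in BaP testes. The hepatocyte genes summed to between 42.4 and 58.2 in control and between 65.4 and 673 in BaP testes, with the highest value in BaP replicate 2. In that testis mcm7, lig1 and ENSONIG00000014021 were highest of the BaP group. ENSONIG00000007281 was highest in BaP replicate 1 (279, against 266 in BaP replicate 2). The part of these markers in the testis values was not tested.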

How the data were processed

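The authors trimmed the reads of poly(A)-selected libraries, used TopHat for alignment and edgeR for testing. The genome build, annotation and counting program are not given in the sources used here. The deposited values are a normalized signal, reads per gene divided by an effective library size that the authors scaled as CPM. Dividing each library by its smallest step gave whole reads (100% of values within 0.05 of a read), on which edgeR's exact test called 224 liver and 29 testis genes at an adjusted p under 0.05. Columns were matched to samples by title.

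The members and gene lists were chosen with earlier results of these data known. BaP and control fish were compared within each tissue with limma 3.58.1 on log2 of the value plus 1 over all genes, with Benjamini-Hochberg adjustment. Testis values of the members were also compared by exact two-sided permutation. Alternatives on the recovered reads used edgeR 4.0.16 (exact and quasi-likelihood tests) and DESeq2 1.42.0. The 4 tests across genes were tested on a data set simulated for each tissue. There, unchanged genes made up a larger share of the calls by edgeR's exact test and DESeq2 than the adjusted threshold allows. Counting intervals and the 3-read minimum cover counting error only. Replicates are fish by their labels.

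Named genes are the 4 members, every matched symbol of a list of 90 replication and S phase genes, and the 5 genes most correlated with each member per tissue. Of the latter, 1 gene is not reported here. Gene names came from the study's list of 1526 named IDs, and none of the tilapia Ensembl IDs is in the reference table given (0 matches), so no coordinates, lengths or sequences are printed. Levels of different genes are not compared, as lengths were not used.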

Additional observations from a re-analysis of the deposited data

Results flagged for a closer look

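In 28 groups of 4 livers (the 4 genes and 10 other listed genes), 3 held a liver far from the others of its group by Dixon's criterion, which chance alone flags in about 1 of 20 groups. For lig1, control replicate 4 was at 2.13 normalized CPM and the other control livers between 1.74 and 1.78, all inside its counting interval of 1.73 to 2.59. For POLE4, BaP replicate 1 was at 0.276, which is 4 reads, against 1.28 to 1.35 in the other BaP livers. For XRCC1, control replicate 2 was at 221.9, against 40.2 to 63.4 in the other control livers.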

How the results depend on the processing

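All alternatives run in liver kept the direction of each gene, as did those run on all 6 testes. The log2 fold change of lig1 in liver moved from 0.72 to 1.02 with edgeR's exact test, 1.03 with its quasi-likelihood test and 1.01 with DESeq2. That of ENSONIG00000014021 moved from -1.36 to -2.05, -2.04 and -2.07 with the same tests, which put it beyond mcm7 (-1.96, -1.96 and -1.97). With each liver left out it ranged from -2.36 to -1.71 for mcm7, 0.60 to 0.86 for lig1, -1.98 to -0.78 for ENSONIG00000014021 and -1.08 to -0.61 for ENSONIG00000007281. With each testis left out it ranged from 0.012 to 0.20 for mcm7, -0.013 to 0.25 for lig1, 0.072 to 0.27 for ENSONIG00000014021 and -0.069 to 0.15 for ENSONIG00000007281. The values below 0 came without control replicate 3, and the cause was not tested. The adjusted p of the 4 genes in testis stayed at 0.842 or above in all of these fits. Scaling by library size alone moved the median log2 fold change of all liver genes from 0.02 to -0.16, and the 1723 genes then past the study's threshold were 357 higher and 1366 lower, against 765 and 783. Of the 4 genes lig1 was then no longer past it.

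In liver 9 genes had an adjusted p under 0.05 with limma, 224 with edgeR's exact test, 5 with its quasi-likelihood test, 443 with DESeq2 and 0 with a pseudocount of 0.1. Leaving out 1 liver gave 0 to 216, the highest without control replicate 3, where mcm7 was among the 216. That is a description, since mcm7 was picked with its liver difference known. At the study's threshold 1548 liver genes were past it, and 1116 to 2370 with 1 liver left out. Of the 4 genes, 2 were past it and lower with limma, where 783 of all 12902 liver genes were. With the exact test, the quasi-likelihood test, DESeq2 or the replicate number as a block, 3 were, against 913, 870, 1026 and 865 genes. With limma without control replicate 2, control replicate 4 or BaP replicate 1 it was 1 of the 4, against 626, 583 and 810 genes. Without control replicate 3 or BaP replicate 2 it was 3 of the 4, against 1201 and 739 genes. The 4 genes were chosen for this comparison, so nothing is read from these counts. In testis 1 gene had an adjusted p under 0.05 with limma, 29 with the exact test, 54 with DESeq2, and 0 with the quasi-likelihood test, library size scaling, a pseudocount of 0.1 or any testis left out. At the study's threshold 369 testis genes were past it, and 282 to 829 with 1 testis left out.

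Replicate numbers are shared by control and BaP fish but mark no shared fish. Same-numbered libraries did not all deviate together (correlations of -0.02 to 0.20 in liver and -0.08 to 0.37 in testis). With the replicate number as a block, 2 liver and 0 testis genes had an adjusted p under 0.05, and 589 testis genes were past the study's threshold. With Spearman's rho in place of Pearson's r, the atad2 genes were at 0.45 over the livers, against 0.86. The fewest reads in a liver were 23 for ENSONIG00000014021 and 34 for lig1.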

Other observations

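Livers and testes share 6 title numbers, and the labels do not say that a number names a fish. Number 18 is the control liver with the least mcm7 (43.5) and the control testis with the most (288), and number 20 is a control liver at 151 and the control testis with the least (223). Number 15 is the BaP liver with the most mcm7 (61.0) and the BaP testis with the least (260). No relation was computed over these numbers.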
